A study of Mus musculus with 8 samples.

Results

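The 37 genes described here form the core engine of the cell cycle: 8 cyclins, 5 cyclin-dependent kinases (CDKs), 4 CDK inhibitors or CDK-binding phosphatases, 8 E2F transcription factors, 3 pocket proteins of the retinoblastoma family, 2 E2F partners, and 7 CDK phosphatases, kinases and adaptors. They were picked by gene symbol as a functional group, with earlier results of these data known but without a threshold on measured values, and all 37 were found among the 23278 genes of the deposited tables. Thymocytes of C57BL/6 mice were sorted by flow cytometry as GFP+ cells positive for both CD4 and CD8, and split into an earlier stage with low surface CD5 and low T cell receptor beta (DP1) and a later stage with high CD5 and intermediate receptor (DP2). At each stage, cells labelled as wild-type control (WT; Hdac3+/+ in the design text) were set against cells labelled Hdac3KO, from Hdac3F/F LCK-Cre+ animals, in which Cre recombinase driven by the Lck promoter deletes Hdac3 in developing T cells. The labels give 2 libraries in each of the 4 groups, made from ribosomal RNA-depleted RNA pools. They give no age, and do not say whether the WT animals carried the Cre transgene.

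The values are FPKM (fragments per kilobase of transcript scaled to the mapped fragments of a library), a level corrected for gene length. The authors' deposited tables hold 1 FPKM per gene and group, which combines both libraries. Values of single libraries and their spread were therefore not analysed here, depth is unknown, and nothing shows whether the 2 libraries of a group came from different animals, so the p-values may measure technical spread. A gene is called higher or lower where the deposited Cuffdiff q-value is at most 0.05. The standard error (SE) beside each log2 change was worked back from the deposited p-value. Where p stands at its floor of 5e-05, the printed SE is an upper bound.

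As background, cyclins are the regulatory subunits that switch CDKs on. D cyclins with CDK4 and CDK6, and then E cyclins with CDK2, phosphorylate the pocket proteins, which releases activating E2F factors to turn on genes for DNA replication. Cyclin A and cyclin B with CDK1 then drive the passage through G2 and mitosis. In resting cells the repressive E2Fs and pocket proteins join the MuvB complex, which holds many G2 and mitosis genes silent through a short promoter element, the cell cycle homology region (CHR). In the thymus, cells divide rapidly as they enter the double-positive stage and then rest, and cyclin D3 is the D cyclin best known for that burst.

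Promoter stretches are shown for members whose promoter entry was used here, so that genes on opposite sides can be read together. Of these, Cdk1, Ccnb1, Ccnb2, Ccnf, Cks1b, Cdkn3, Cdk4, Cdkn2c and Cks2 were lower in Hdac3KO DP1 cells. Ccnd3 and Cdkn2d were higher in Hdac3KO DP2 cells. Each stretch is the 200 bases upstream of a transcription start of the RefSeq table (GRCm38.p6), 5′ to 3′ on the gene's strand. Capitals mark matches, on either strand, to the CHR (TTTGAA or TTCGAA), the CCAAT box (CCAAT) or an E2F element (TTTCGCGC, TTTGGCGC, TTTCCCGC or TTTGCCGC). None of these motifs is contained in another.
Cdk1, minus strand, chr10:69352913-69353112: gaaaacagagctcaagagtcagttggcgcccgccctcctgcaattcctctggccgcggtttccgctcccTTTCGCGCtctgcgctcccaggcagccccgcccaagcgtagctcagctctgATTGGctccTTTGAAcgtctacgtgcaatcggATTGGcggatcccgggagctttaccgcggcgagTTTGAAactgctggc
Ccnb1, minus strand, chr13:100786487-100786686: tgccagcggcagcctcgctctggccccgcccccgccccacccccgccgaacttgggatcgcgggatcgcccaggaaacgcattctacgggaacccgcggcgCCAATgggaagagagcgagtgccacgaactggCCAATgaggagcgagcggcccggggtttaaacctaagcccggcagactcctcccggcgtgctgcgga
Ccnb2, minus strand, chr9:70421555-70421754: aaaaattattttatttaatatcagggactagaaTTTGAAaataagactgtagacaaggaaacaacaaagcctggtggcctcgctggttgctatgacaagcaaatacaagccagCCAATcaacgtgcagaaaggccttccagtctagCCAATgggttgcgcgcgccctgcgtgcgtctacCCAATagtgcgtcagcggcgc
Ccnf, minus strand, chr17:24251410-24251609: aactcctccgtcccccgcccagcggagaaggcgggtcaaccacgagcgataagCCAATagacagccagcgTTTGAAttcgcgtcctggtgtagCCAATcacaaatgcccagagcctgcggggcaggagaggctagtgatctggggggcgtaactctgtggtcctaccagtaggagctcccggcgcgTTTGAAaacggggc
Cks1b, minus strand, chr3:89418292-89418491: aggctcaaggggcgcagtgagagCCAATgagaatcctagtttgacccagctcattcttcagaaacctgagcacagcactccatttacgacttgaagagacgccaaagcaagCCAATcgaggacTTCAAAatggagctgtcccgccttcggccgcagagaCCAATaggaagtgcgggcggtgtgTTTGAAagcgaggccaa
Cdkn3, plus strand, chr14:46760341-46760540: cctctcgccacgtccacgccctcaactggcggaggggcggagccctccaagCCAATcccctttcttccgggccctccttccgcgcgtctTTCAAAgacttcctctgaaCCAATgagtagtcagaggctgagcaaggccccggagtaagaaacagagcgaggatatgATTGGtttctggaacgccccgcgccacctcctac
Cdk4, plus strand, chr10:127063335-127063534: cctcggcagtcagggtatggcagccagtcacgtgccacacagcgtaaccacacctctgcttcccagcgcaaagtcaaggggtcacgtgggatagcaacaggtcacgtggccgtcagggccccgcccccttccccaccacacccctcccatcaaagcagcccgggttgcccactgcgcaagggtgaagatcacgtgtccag
Cdkn2c, first start listed, minus strand, chr4:109665373-109665572: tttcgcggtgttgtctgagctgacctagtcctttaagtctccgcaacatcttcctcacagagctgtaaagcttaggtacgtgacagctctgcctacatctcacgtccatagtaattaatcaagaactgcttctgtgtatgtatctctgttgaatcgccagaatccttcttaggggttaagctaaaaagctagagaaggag
Cdkn2c, other start, minus strand, chr4:109666757-109666956: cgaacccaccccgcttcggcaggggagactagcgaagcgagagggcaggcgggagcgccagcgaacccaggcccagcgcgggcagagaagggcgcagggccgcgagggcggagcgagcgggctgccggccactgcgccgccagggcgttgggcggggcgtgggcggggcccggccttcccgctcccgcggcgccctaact
Cks2, plus strand, chr13:51645032-51645231: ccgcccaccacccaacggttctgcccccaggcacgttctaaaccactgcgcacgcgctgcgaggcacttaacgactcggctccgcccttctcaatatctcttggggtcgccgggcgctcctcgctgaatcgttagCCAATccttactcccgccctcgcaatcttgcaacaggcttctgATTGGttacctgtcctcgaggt
Ccnd3, first start listed, plus strand, chr17:47504851-47505050: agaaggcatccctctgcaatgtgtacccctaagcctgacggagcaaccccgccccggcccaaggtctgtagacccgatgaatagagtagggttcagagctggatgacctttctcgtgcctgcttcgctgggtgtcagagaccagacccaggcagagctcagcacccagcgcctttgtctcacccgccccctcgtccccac
Ccnd3, other start, plus strand, chr17:47593267-47593466: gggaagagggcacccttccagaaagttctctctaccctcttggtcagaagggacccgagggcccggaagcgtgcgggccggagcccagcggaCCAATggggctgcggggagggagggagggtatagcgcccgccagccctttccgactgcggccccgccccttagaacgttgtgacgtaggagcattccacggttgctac
Cdkn2d, minus strand, chr9:21291210-21291409: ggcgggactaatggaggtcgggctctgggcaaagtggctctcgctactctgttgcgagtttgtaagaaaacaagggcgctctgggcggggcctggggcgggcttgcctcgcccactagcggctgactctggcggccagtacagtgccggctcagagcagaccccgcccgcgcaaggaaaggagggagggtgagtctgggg

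With positions counted back from the start site, Cdk1 held CHR matches beginning at -71 and -15, CCAAT matches at -80 and -48 and an E2F match at -131. Ccnf held CHR matches at -130 and -14, and Cks1b at -77 and -17. The Ccnb1 stretch held CCAAT matches at -99 and -67 and no CHR letters. Cdk4, Cdkn2c and Cks2, which include the 2 largest falls in DP1, held no CHR letters either, and Cks2 held CCAAT matches at -65 and -22. For Ccnd3, the first start held none of the motifs and the other held a CCAAT match at -108. Entries of the promoter table, which runs from 250 bases before to 50 bases after each start, were used for 29 of the 37 members. Among members with an entry used, CHR letters were found for 5 of the 9 that were lower in Hdac3KO DP1 cells (55.6%) and for 6 of the 20 others (30.0%). They were found for 21.7% of all 27025 genes in the table. CCAAT letters were found for 8 of those 9 members (88.9%), 11 of the 20 others (55.0%) and 41.1% of all genes. E2F letters were found for 1 of the 9 (11.1%), 7 of the 20 others (35.0%) and 2.60% of all genes. These shares are descriptions of letters in a window, and no binding was measured. Promoter entries were not used for Ccna2, Ccnd2, Ccne2, E2f4, E2f5, Rb1, Cdc25c and Wee1.

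Several facts of the whole series touch every result below. Hdac3 itself read 38.1 FPKM in WT DP1 and 11.7 in Hdac3KO DP1 per the authors' deposited table (q = 8.79e-04), and 29.7 against 15.4 in DP2 (q = 0.0131), so transcript remained in the libraries labelled Hdac3KO. The genotypes also differed in sex-linked genes: the authors' deposited tables give Xist at 0.0945 and 0.243 FPKM in WT DP1 and DP2 and at 208 and 139 in Hdac3KO, and the Y-linked Kdm5d at 20.0 and 34.6 against 0.264 and 0.322. Genotype and sex therefore cannot be told apart, and 0 of the 37 members lie on X or Y. All 10 markers of double-positive thymocytes were above 1 FPKM in each group. Their summed FPKM was 6431 in WT and 7753 in Hdac3KO at DP1, and 3739 against 8244 at DP2, where 5 of the 10 were called higher (among them Cd4 and Themis). Between the groups of a comparison, the median gene with at least 10 FPKM in both shifted by -0.11 (DP1 genotype), 0.12 (DP2 genotype), -0.33 (WT stage) and -0.01 (Hdac3KO stage) on the log2 scale.

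Within WT DP1 cells the most abundant member was Ccnd3, cyclin D3, at 257 FPKM per the authors' deposited table. It was followed by Ccna2 (cyclin A2) at 152 FPKM, the E2F partner Tfdp1 at 132, Ccnb1 (cyclin B1) at 124, Ccnb2 at 101 and the CDK adaptor Cks2 at 98.5, per the same deposited table. In Hdac3KO DP1 cells Ccnd3 again stood first at 245 FPKM, but Tfdp1 (94.2), the CDK4 and CDK6 inhibitor Cdkn2d (86.1), Ccna2 (84.1), the CDK inhibitor Cdkn1b (80.3) and E2f4 (68.5) came next per the authors' deposited table. Ccnb1 and Ccnb2 thus stood above the inhibitors Cdkn2d and Cdkn1b in WT DP1 and below both in Hdac3KO DP1. At DP2 values of the authors' deposited table again put Ccnd3 first in both genotypes, at 104 FPKM in WT cells and 233 in Hdac3KO, followed by Cdkn2d (57.7 and 98.7) and Cdkn1b (52.4 and 76.0). Neighbours in these orders lie close, and no spread between libraries is at hand to separate them. The least abundant member in every group was Ccnd2, cyclin D2, which read 0.346 FPKM in WT cells and 0.182 in Hdac3KO cells at DP1, and 2.30 against 0.683 at DP2, per the authors' deposited tables. DP1 and DP2 levels in this paragraph come from tables that were normalized separately.

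**Figure D1:**
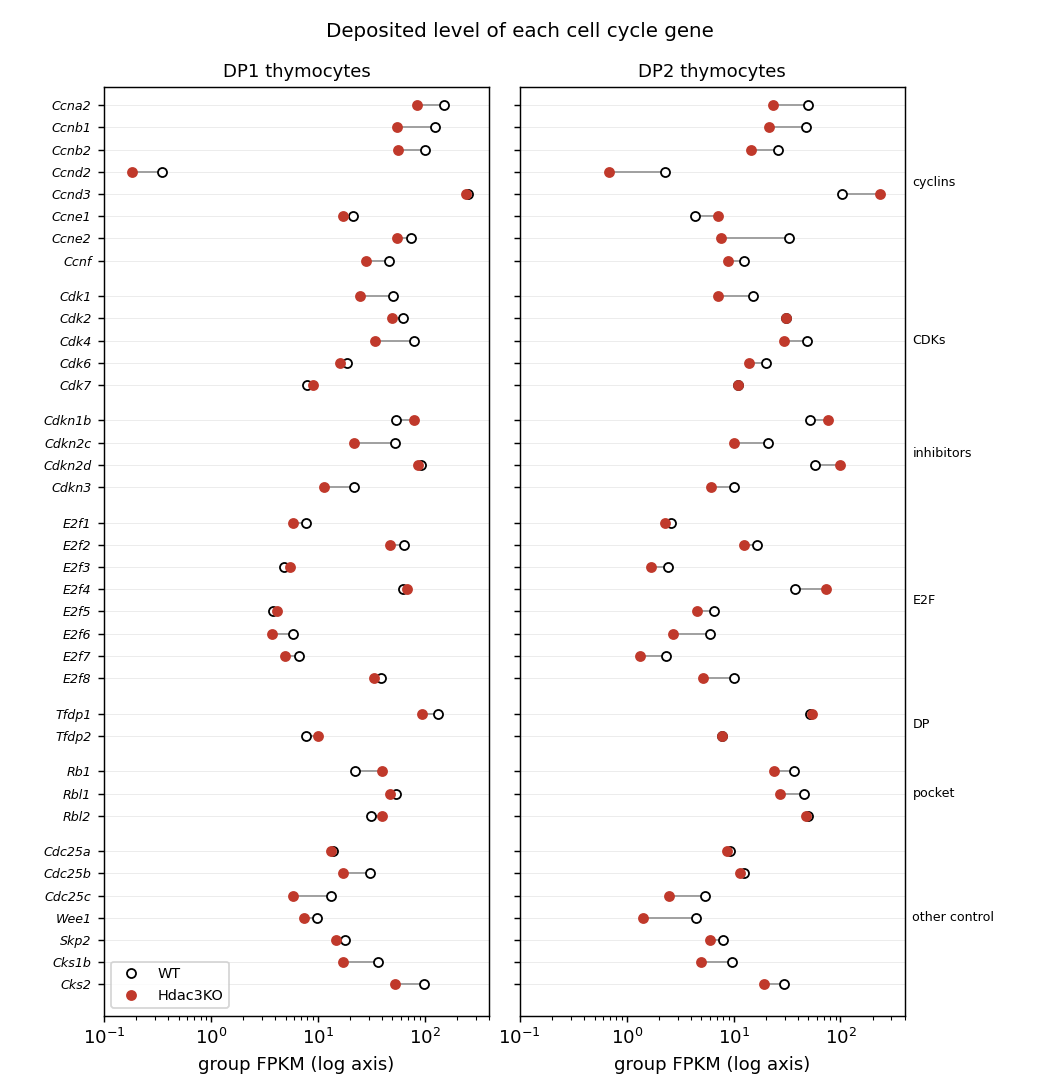
FPKM of each of the 37 members in the 4 groups, on a log axis, grouped by role, with 1 deposited value per group and no error (the role marked DP is that of the E2F partners Tfdp1 and Tfdp2). Ccnd3 is the highest member in all 4 groups and Ccnd2 the lowest.

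In DP1 cells cyclins A2, B1, B2 and F, the kinases Cdk1 and Cdk4, the inhibitor Cdkn2c and the adaptors Cks1b and Cks2 were among the members lower without Hdac3. Of 36 members tested, 11 were called lower in Hdac3KO and 1 higher, where 12.9% and 10.7% of all 10511 tested genes were called in those directions. The median log2 change of the members was -0.40, beside -0.08 over all genes with at least 1 FPKM in either group. In bulk RNA, fewer dividing cells in a sort and less of a transcript in each dividing cell cannot be told apart.

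Among the cyclins, 4 of 7 tested in DP1 were lower and 0 higher (0 at an unadjusted Cuffdiff p under 0.05). Ccnb1, the partner of CDK1 at entry to mitosis, read 124 FPKM in WT cells and 55.0 in Hdac3KO per the authors' deposited table (log2 change -1.17 ± 0.29 SE, q = 8.79e-04). Ccna2, which serves both replication and G2, read 152 and 84.1 FPKM (-0.85 ± 0.26, q = 0.00882), per the authors' deposited table. Ccnb2 fell from 101 to 55.8 FPKM per the authors' deposited table (q = 0.00708) and Ccnf, the F-box cyclin of G2, from 45.9 to 28.5 (q = 0.0278). Ccnd2 was not tested in DP1, and the G1 cyclins that were tested did not pass. Per the authors' deposited table Ccnd3 read 257 and 245 FPKM (q = 0.887), Ccne1 21.2 and 17.2 (q = 0.426) and Ccne2 74.5 and 55.3 (q = 0.428).

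Of the 5 kinases, 2 were lower in DP1. Cdk1, the mitotic kinase, read 50.3 FPKM in WT cells and 24.6 in Hdac3KO per the authors' deposited table (-1.03 ± 0.25, q = 8.79e-04). Cdk4, the partner of D cyclins, read 78.9 and 34.0 FPKM (-1.22 ± 0.30, q = 8.79e-04), per the authors' deposited table. Cdk2, Cdk6 and Cdk7 did not pass, with log2 changes of -0.36, -0.19 and 0.18. Cdkn2c, an inhibitor of CDK4 and CDK6, had the largest fall of the 36 members tested, from 52.4 to 21.7 FPKM per the authors' deposited table (-1.27 ± 0.31, q = 8.79e-04). Cdkn3, a phosphatase that acts on CDKs, read 21.7 and 11.4 FPKM (q = 0.0386 per the authors' deposited table). The inhibitors Cdkn1b (p27) and Cdkn2d did not pass: the authors' deposited table gives 53.6 and 80.3 FPKM (q = 0.0739) and 92.3 and 86.1 FPKM (q = 0.814).

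Cdc25c, a phosphatase that activates CDK1, read 13.4 FPKM in WT DP1 and 5.81 in Hdac3KO DP1 per the authors' deposited table (-1.21 ± 0.34, q = 0.00436). Both CDK adaptors were lower as well: Cks1b read 36.7 and 17.3 FPKM per the authors' deposited table (-1.09 ± 0.32, q = 0.00592), and Cks2 98.5 and 52.6 (-0.90 ± 0.29, q = 0.0124). Cdc25a, Cdc25b, Wee1, the kinase that restrains CDK1, and Skp2, which directs p27 to destruction, did not pass. None of the 8 E2F genes was called in DP1 (at an unadjusted Cuffdiff p under 0.05, 1 was lower, E2f6, and 0 higher), and their log2 changes ran from -0.64 to 0.19. Rb1, the retinoblastoma gene, was the 1 member called higher, at 22.1 FPKM in WT cells and 39.6 in Hdac3KO per the authors' deposited table (0.84 ± 0.32, q = 0.0390). Its relatives Rbl1 and Rbl2 did not pass, nor did the E2F partners Tfdp1 and Tfdp2.

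Relative to the median gene, 9 members stayed lower in DP1 (Ccnf and Cdkn3 no longer passed) and 2 were higher (Rb1 and Cdkn1b). Over all genes the same centring turned 1117 higher and 1357 lower calls into 1431 and 941. With the trend of the log2 change on transcript length removed, 7 members were lower (Ccna2, Ccnb2, Cdkn3, Cks1b and Cks2 no longer passed, and Cdk6 did, at -0.75), and Rb1 no longer passed, at 0.75. Removing that trend left 841 higher and 555 lower calls over all genes.

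In DP2 cells cyclin A2, cyclin B1 and Cdk1 were again lower, and cyclin D3 was higher. Of 37 tested, 7 were lower and 3 higher in Hdac3KO, where 4.32% and 6.44% of all 10674 tested genes were called lower and higher. The median log2 change was -0.54, beside 0.08 over all genes. Ccna2, Ccnb1 and Cdk1 were lower at both stages, which is 3 of the 11 called lower in DP1 and 3 of the 7 in DP2. These comparisons share no library, but both carry the sex difference given above. Over all genes 180 were lower at both stages, which is 13.3% of those lower in DP1 and 39.0% of those lower in DP2. The 3 of 7 members thus lies near the share over all genes.

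Ccnd3 read 104 FPKM in WT DP2 and 233 in Hdac3KO DP2 per the authors' deposited table (log2 change 1.16 ± 0.29 SE, q = 0.00134). E2f4, a mainly repressive E2F that works with pocket proteins in resting cells, read 37.3 and 74.0 FPKM (0.99 ± 0.24, q = 0.00134), per the authors' deposited table. Cdkn2d read 57.7 and 98.7 FPKM (0.78 ± 0.25, q = 0.0208 per the authors' deposited table). These 3 genes include a driver of G1, a repressor and a CDK inhibitor. The markers of double-positive thymocytes were also higher in this comparison (above), and their part in the result was not tested.

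On the lower side, Ccnb1 read 47.7 FPKM in WT DP2 and 21.6 in Hdac3KO DP2 per the authors' deposited table (-1.14 ± 0.32, q = 0.00666). Ccna2 read 50.0 and 23.2 FPKM (-1.11 ± 0.29, q = 0.00338) and Cdk1 15.3 and 7.21 (-1.09 ± 0.35, q = 0.0234), per the authors' deposited table. In DP1 the log2 changes of the same genes were -1.17, -0.85 and -1.03. Ccne2, the second E cyclin, had the largest fall among the members, from 33.3 to 7.65 FPKM per the authors' deposited table, with a wide error (-2.12 ± 0.74, q = 0.0415). Ccne1 read 4.40 and 7.19 FPKM per the authors' deposited table and did not pass (q = 0.284). The 2 E cyclins thus had log2 changes of opposite sign, and the difference between them was not tested.

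Wee1 read 4.47 FPKM in WT DP2 and 1.43 in Hdac3KO DP2 (-1.65 ± 0.48, q = 0.0108), and the repressor E2f8 9.99 and 5.21 (-0.94 ± 0.30, q = 0.0250), per the authors' deposited table. Ccnd2 read 2.30 and 0.683 FPKM per the authors' deposited table (-1.75 ± 0.57, q = 0.0259), at levels far under those of Ccnd3. None of the 3 pocket proteins passed in DP2 (at an unadjusted Cuffdiff p under 0.05, 1 was lower, Rbl1, and 0 higher), and Rb1 read 36.7 and 24.1 FPKM per the authors' deposited table (q = 0.251). Of the 7 CDK phosphatases, kinases and adaptors, Wee1 alone passed, while Cdc25c, Cks1b and Cks2 had log2 changes of -1.11, -0.96 and -0.62. Relative to the median gene, 10 members were lower in DP2, with Ccnb2, Cdk4 and Rbl1 added, and 2 were higher, without Cdkn2d. The same centring changed the calls over all genes from 681 higher and 460 lower to 464 and 612.

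**Figure D2:**
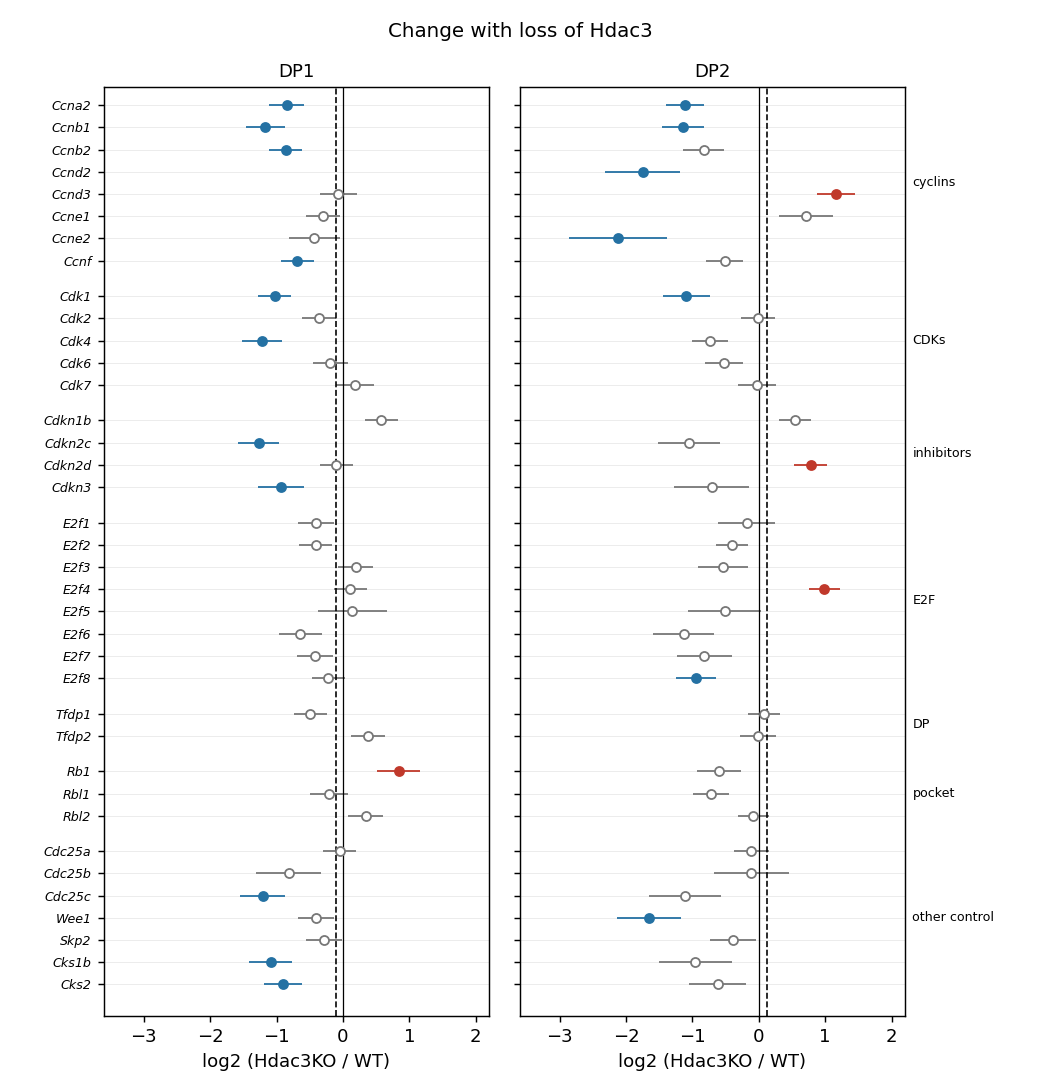
Log2 change of each member, Hdac3KO over WT, in DP1 and in DP2, with SE bars worked back from the deposited p filled points (blue lower, red higher) for genes called at q of 0.05 or less, and a dashed line at the median gene; members not tested are left blank. The cyclins A2 and B1 and Cdk1 lie near -1 at both stages, while Ccnd3, E2f4 and Cdkn2d lie near 0 in DP1 and between 0.78 and 1.16 in DP2.

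An effect called at 1 stage alone is not thereby shown to differ, so the difference of the genotype effects (DP2 minus DP1) was tested for each gene by a two-sided normal test with Benjamini-Hochberg adjustment over 10144 genes. None of the 36 members tested passed an adjusted p of 0.05 (7 had an unadjusted p under 0.05 in this test), where 0.897% of all genes were more positive and 1.18% more negative. The difference computed from the stage tables, which were normalized otherwise, also gave 0 members, with 4 at an unadjusted p under 0.05. By that route 312 of 9969 genes passed an adjusted p of 0.05. For members with a deposited p at its floor, the SE of the difference is an upper bound and its p may be too high. A count of 0 by either route therefore does not show that the effects were equal. With 1 value per group, no exact test over libraries could be run. For Rb1 the difference was -1.45 ± 0.46 SE with an adjusted p of 0.0600. For Ccnd3 it was 1.24, SE at most 0.40, with an adjusted p of 0.0715. E2f4 and Cdkn2d each had a difference of 0.88 ± 0.35 (an upper bound of the SE for E2f4), with adjusted p of 0.147 and 0.150. Wee1 (-1.24 ± 0.55), Ccne1 (1.01 ± 0.49) and Ccne2 (-1.69 ± 0.83) were the other members with an unadjusted p under 0.05. Relative to the median gene, Rb1 passed. For Ccnb1 the difference was 0.03, SE at most 0.43, an error that leaves room for unequal effects of either sign.

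Between the stages, most of the engine was lower in DP2 than in DP1, in both genotypes. In WT, 26 of 37 members were lower in DP2 and 1 was higher, where 16.8% and 5.56% of all 10851 tested genes were called lower and higher. The median log2 change of the members was -1.40, beside -0.24 over all genes. These comparisons use the same libraries as the genotype comparisons and so are not independent of them.

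Ccne1, the first E cyclin, fell the most in WT, from 24.1 FPKM in DP1 to 4.24 in DP2 per the authors' deposited table (-2.51, SE at most 0.62, q = 8.35e-04). The E2F family followed the cyclins: 6 of 8 were lower, among them the activator E2f2, from 72.5 to 15.7 FPKM, and the repressor E2f8, from 44.8 to 9.53, both at q = 8.35e-04 per the authors' deposited table. E2f5 and E2f6 did not pass. Ccnb2 read 115 and 25.0 FPKM, Cdk1 56.8 and 14.9, and Cks1b 41.8 and 9.17, all 3 at q = 8.35e-04 per the authors' deposited table. Each of the 7 CDK phosphatases, kinases and adaptors was lower, from -2.19 for Cks1b to -0.84 for Cdc25a. Of the pocket proteins 0 of 3 passed (0 at an unadjusted Cuffdiff p under 0.05), and their values moved both ways. Rb1 and Rbl2 read 24.8 and 35.5 FPKM (q = 0.287) and 35.5 and 47.8 (q = 0.288), and Rbl1 61.3 and 44.0 (q = 0.251), per the authors' deposited table. Ccnd2 was the 1 member called higher, from 0.393 FPKM in WT DP1 to 2.19 in WT DP2 per the authors' deposited table (2.48, SE at most 0.61, q = 8.35e-04). The main D cyclin, Ccnd3, went the other way, from 294 to 98.9 FPKM per the authors' deposited table (-1.57, SE at most 0.39, q = 8.35e-04). Relative to the median gene, 20 members were lower in WT DP2, without Cdk4, Cdkn2d, Cdkn3, E2f3, Cdc25a and Cdc25b, and 17 were with the length trend removed. Centring on the median gene turned 600 higher and 1812 lower calls over all genes into 1181 and 703. Removing the length trend turned them into 840 and 465.

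In Hdac3KO cells 21 of 36 members tested were lower in DP2 and 0 higher (0 at an unadjusted Cuffdiff p under 0.05), where 4.65% and 1.78% of all 10231 tested genes were called lower and higher. The median was -1.13, beside 0.01 over all genes. In both genotypes 19 members were lower, which is 19 of the 26 called in WT and 19 of the 21 called in Hdac3KO. Over all genes 355 were lower in both, which is 19.5% of those lower in WT and 74.6% of those lower in Hdac3KO. They include Ccna2, at 84.7 and 21.1 FPKM in Hdac3KO DP1 and DP2, and Cdk1, at 24.7 and 6.56, per the authors' deposited table (both q = 0.00151). Ccne2 fell the most, from 56.0 to 6.95 FPKM (-3.01, SE at most 0.74), and E2f8 next, from 33.7 to 4.73 (-2.83, SE at most 0.70), both at q = 0.00151 per the authors' deposited table. Ccne2 and Rbl1 were called in Hdac3KO and not in WT.

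The 7 members lower in WT DP2 and not called in Hdac3KO were Ccnd3, Cdk4, Cdkn2d, Cdkn3, E2f4, Cdc25b and Cdc25c. Such a pattern was common over all genes, where 1416 of the 1818 lower in WT (77.9%) were tested and not called in Hdac3KO, against these 7 of 26 members. All 7 members had a log2 change of smaller size in Hdac3KO, though to unequal extents. In WT and in Hdac3KO it was -1.54 and -1.36 for Cdc25c (q = 0.0773 in Hdac3KO) and -1.33 and -1.02 for Cdkn3 (q = 0.263). For Cdc25b it was -1.55 and -0.73 (q = 0.522). For 3 others the Hdac3KO values of the stages lay close: per the authors' deposited table Ccnd3 read 243 and 211 FPKM (q = 0.794), E2f4 68.1 and 67.0 (q = 0.981) and Cdkn2d 86.0 and 89.5 (q = 0.955). In WT the same genes read 294 and 98.9, 72.5 and 35.3, and 105 and 55.2 FPKM in DP1 and DP2 of the authors' deposited table. The tests of this contrast are those of the differences above, computed from the stage tables, with adjusted p of 0.0631 for Ccnd3, 0.0551 for E2f4 and 0.0779 for Cdkn2d. For Ccnd3 and E2f4 the deposited p in WT stood at its floor, so these adjusted p may be too high. Cdk4, called lower in Hdac3KO DP1 against WT, read 33.9 and 26.8 FPKM between the Hdac3KO stages per the authors' deposited table (q = 0.541). Across all 4 comparisons 7 members were called in none: Cdk6, Cdk7, Cdkn1b, E2f5, E2f6, Rbl2 and Tfdp2.

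**Figure D3:**
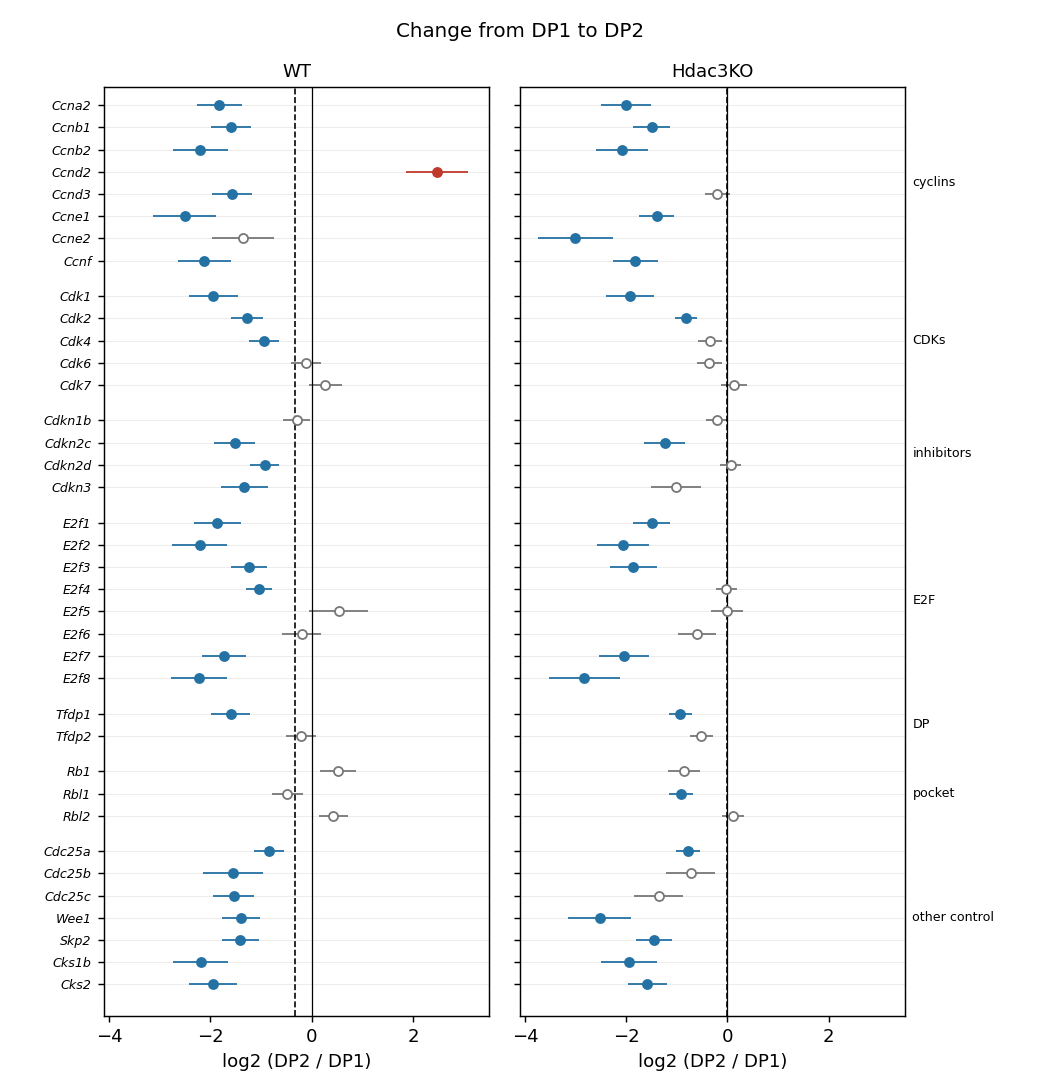
Log2 change of each member, DP2 over DP1, in WT and in Hdac3KO, with SE bars worked back from the deposited p filled points (blue lower, red higher) for genes called at q of 0.05 or less, and a dashed line at the median gene; members not tested are left blank. Most members lie below -1 in both genotypes, while Ccnd3, E2f4 and Cdkn2d lie at -1.57, -1.04 and -0.93 in WT and at -0.20, -0.02 and 0.06 in Hdac3KO.

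Genes that the engine controls, or that control it, were counted from 6 further lists, to be read against the shares of all tested genes given above for each comparison. Of 28 replication and nucleotide genes that E2F factors regulate, 19 were lower in Hdac3KO DP1 and 0 higher (0 at an unadjusted Cuffdiff p under 0.05), with a median of -0.84. Mcm5, a subunit of the replicative helicase, read 112 FPKM in WT cells and 48.2 in Hdac3KO per the authors' deposited table (q = 8.79e-04), and Gmnn, which limits origin licensing, 38.2 and 16.6 (q = 0.00154). In DP2, 11 of 27 tested were lower, among them Cdc45 (-1.43) and Rrm2 (-1.38), with a median of -0.76 over the list. At that stage 4 of the 28 had log2 changes above 0, none of them called. None of the 8 E2F genes was called in DP1 (above). Between stages 27 of 28 were lower in WT and 25 of 28 in Hdac3KO, with Mcm10 at -2.81 and -2.99.

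Of 24 G2 and mitosis genes, 8 were lower in Hdac3KO DP1 and 14 in DP2, with 0 higher in either (0 at an unadjusted Cuffdiff p under 0.05 in both). In DP1, 4 of the 24 had log2 changes above 0, none of them called, among them Cenpe (0.48) and Cenpf (0.45). Nuf2, a kinetochore component, read 74.7 and 32.9 FPKM in DP1 (q = 8.79e-04) and 28.9 and 8.74 in DP2 (q = 0.00134) per the authors' deposited tables. Mki67, the proliferation marker, did not pass in DP1, at 374 and 444 FPKM per the authors' deposited table (q = 0.588), and read 251 and 98.7 in DP2 (q = 0.00134). Between stages, 17 were lower in WT and 22 in Hdac3KO. Among the 7 MuvB, B-Myb and FoxM1 regulators, 1 was lower in each genotype comparison, Mybl2 in DP1 (19.6 and 11.9 FPKM, q = 0.0288 per the authors' deposited table) and Lin9 in DP2 (40.3 and 21.5 FPKM, q = 0.0435), counts that are no more than a gene from the 12.9% and 4.32% lower over all genes. Between stages, 3 of 7 were lower in WT and 2 of 7 in Hdac3KO, and Mybl2 and Foxm1 were among them in both.

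Of the cyclins, CDKs and inhibitors outside the 37, 8 of 27 tested were higher in Hdac3KO DP1 and 1 lower. Ccnl1, a cyclin of splicing and transcription, read 39.0 FPKM in WT cells and 129 in Hdac3KO, and Ccnt2, a transcription-elongation cyclin, 17.8 and 39.6, per the authors' deposited table (both q = 8.79e-04). The inhibitor Cdkn1c was the 1 that fell, from 1.97 to 0.795 FPKM per the authors' deposited table (q = 0.0256). In DP2, 2 of 25 were higher and 0 lower (0 at an unadjusted Cuffdiff p under 0.05), where 6.44% of all tested genes were higher, so the higher count lies near that background. Of the anaphase promoting complex and SCF ligase genes, 4 of 21 were lower in DP1 and 1 of 21 in DP2, the latter Fbxo5, an inhibitor of the anaphase promoting complex, at 53.5 and 27.5 FPKM per the authors' deposited table (q = 0.0304). Over all tested genes 12.9% were lower in DP1 and 4.32% in DP2, so the DP1 count lies near that background and the DP2 count at it. Between the stages 9 of 21 of these were lower in WT, and 3 of 20 were lower and 1 higher in Hdac3KO.

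Upstream of the D cyclins, Myc, a driver of growth and G1 entry, read 5.70 FPKM in WT DP1 and 2.08 in Hdac3KO DP1 per the authors' deposited table (-1.45 ± 0.36, q = 8.79e-04). Bcl6, a transcriptional repressor, rose at both stages: the authors' deposited tables give 40.4 and 111 FPKM in DP1 (q = 8.79e-04) and 48.8 and 118 in DP2 (q = 0.00134). In DP2, 5 of 15 tested genes of this list were higher, among them the antiproliferative gene Btg2, at 146 and 313 FPKM per the authors' deposited table (q = 0.00134), and 1 was lower, the interleukin 7 receptor gene Il7r, at 10.2 and 0.653 FPKM (q = 0.0159). In DP1, 1 of 16 was higher and 2 were lower, where 10.7% and 12.9% of all tested genes were called, so these counts lie near the background. Between stages, 1 of 17 was higher and 3 lower in WT, and 0 of 14 higher (1 at an unadjusted Cuffdiff p under 0.05) and 1 lower in Hdac3KO. Over all tested genes 5.56% were higher and 16.8% lower in WT, and 1.78% and 4.65% in Hdac3KO. The stage counts of this list thus lie near the background too.

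**Figure D4:**
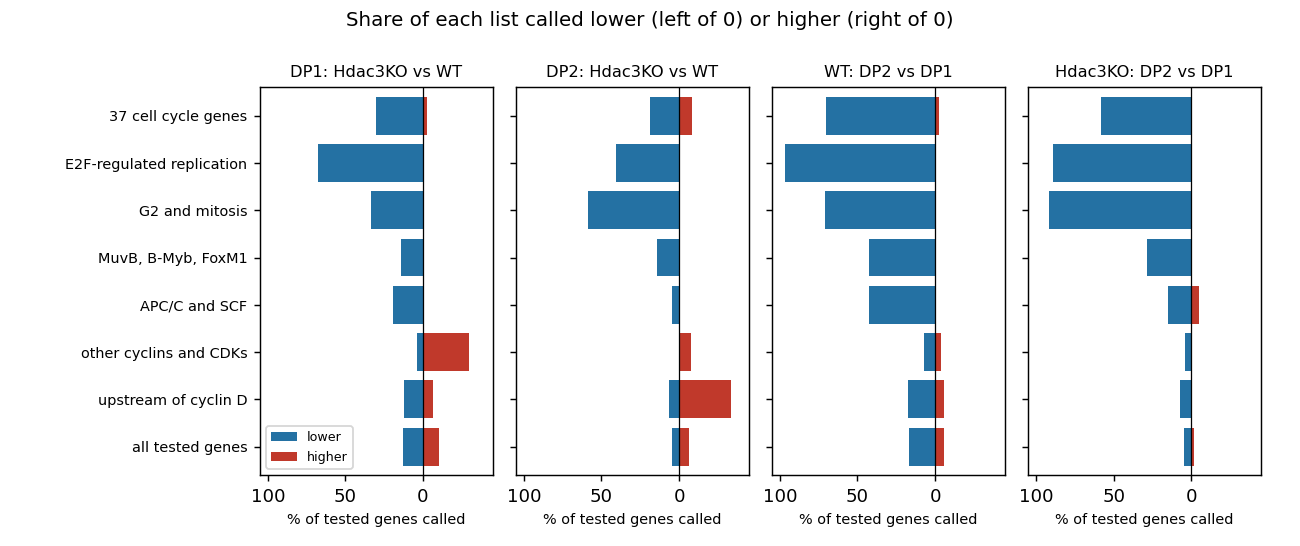
Percent of tested genes called lower (bars left of 0) and higher (bars right of 0) in each of the 4 comparisons, for the 37 members, the 6 pathway lists and all tested genes. The replication list has 19 of 28 genes lower in Hdac3KO DP1, and the G2 and mitosis list 14 of 24 lower in Hdac3KO DP2.

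Markers of other cells moved between genotypes in places. The summed FPKM of 5 myeloid and dendritic markers was 3.35 in WT and 10.2 in Hdac3KO at DP1 and 5.24 and 19.0 at DP2, with Cd14 at 0 in DP1. Only 1 of the 5 was above 1 FPKM in each genotype at DP1, and 2 were at DP2. At each stage 1 of them was tested, and it was called higher. For B cell markers the sums were 8.58 and 7.72 at DP1 and 8.99 and 6.33 at DP2, and for mature single-positive thymocyte markers 80.5 and 66.5, then 98.0 and 82.1. Of the 6 single-positive markers, 4 were above 1 FPKM in WT and 2 in Hdac3KO at each stage. At DP2, 4 of them were tested, with 1 called higher and 2 lower. Double-negative thymocyte markers summed to 52.8 and 30.0 at DP1 and to 227 and 50.0 at DP2, where Hhex gave most of the WT sum (221 FPKM, a value of the authors' deposited table) and Il2ra was higher in Hdac3KO. Erythroid markers summed to at most 2.73 FPKM, natural killer and gamma delta T cell markers to at most 1.77, and thymic epithelium markers to at most 12.6 in any group. Regulatory T cell markers summed to 23.0 and 30.7 at DP1 and to 102 and 52.3 at DP2. The part of these cells in the cell cycle results was not tested.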

How the data were processed

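RNA of sorted thymocytes was sequenced in 8 libraries, 2 in each of 4 groups. Per the labels' protocols, Trizol-extracted, ribosomal RNA-depleted RNA went into Clontech SMARTer Stranded libraries. Tools named in the submitters' processing notes are Cuffdiff 2.1.1, TopHat2 2.0.11 and Trimmomatic 0.32, with mm10 as the genome. The counting settings and annotation are not given in the sources used here. The authors deposited 4 tables, each with 1 FPKM per gene and group, normalized within that table only. Median FPKM ratios of a group between its 2 tables were 0.908 to 1.13. The authors' deposited p-value has a floor of 5e-05, and the deposited q-value covers the tested genes of a table.

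Log2 changes were computed from the deposited FPKM with no pseudocount, with Python 3.11.15, pandas 2.3.3 and scipy 1.17.1. The SE is the size of the log2 change over the normal quantile of the deposited p, and is imprecise where p is near 1. The difference of effects was divided by the root of the summed squared SEs, and this step was tested on simulated data. The simulated effects had opposite signs in the 2 comparisons, because the floor of p caps an effect in 1 alone. Effects of the same sign, or in 1 comparison alone, were not simulated. Medians cover genes with at least 1 FPKM in either group. The length trend is a lowess fit (fraction 0.3, statsmodels 0.14.6) on the longest GENCODE M21 transcript.

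The members and gene lists were chosen with earlier results of these data known. All 37 members are accounted for, and other genes were named as at most the 3 called genes with the largest log2 change in a list and comparison. Mki67 in the genotype comparisons, Cenpe, Cenpf and the marker genes were named outside that rule after their values were seen. In the tables, 10 members share a locus entry with other genes, so their reads may be split among overlapping genes: Cdc25b with 12 others, Rb1 with 2, and Ccna2, Ccnd2, Ccnd3, Ccne2, Ccnf, Cdk7, E2f5 and Rbl2 with 1 each. Reads shared with processed pseudogenes of Ccnb1, Ccnb2 and Ccnd3 were not tested. Promoters are from RefSeq (GRCm38.p6). Some withheld items are not reported here.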

Additional observations from a re-analysis of the deposited data

How the results depend on the processing

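The median of the members kept its sign under every alternative run. For members higher in DP1 (1), the count was 0 at a q of 0.01, 2 at 0.10, 0 with a log2 change of at least 1, 2 relative to the median gene and 0 with the length trend removed. The 1117 higher over all genes numbered 637, 1422, 615, 1431 and 841 under those settings. Members lower in DP1 (11) numbered 6 with a log2 change of at least 1 and 7 with the length trend removed, where the 1357 lower over all genes numbered 593 and 555. Members lower in DP2 (7) numbered 2 at a q of 0.01 and 11 at 0.10, and those higher (3) numbered 1 with a log2 change of at least 1. For all genes the 460 lower in DP2 numbered 241 and 640, and the 681 higher numbered 345. Members lower in WT DP2 against WT DP1 (26) numbered 17 with the length trend removed, and the 1 higher (Ccnd2) became 0 with at least 5 FPKM asked for. For all genes the 1812 lower numbered 465 and the 600 higher numbered 494 under those settings. For the difference of the genotype effects, 1 member was more positive and 1 more negative at an adjusted p of 0.10, and 1 (Rb1) was more negative relative to the median gene.

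Signs turned for values that were not called either way. Relative to the median gene these were, in DP1, Ccnd3 (0.04), Cdkn2d (0.01) and Cdc25a (0.07), in DP2, Tfdp1 (-0.03), and between WT stages, Cdk6 (0.22), Cdkn1b (0.03), E2f6 (0.13) and Tfdp2 (0.12). With the length trend removed they were, in DP1, Ccne1 (0.08), Cdkn2d (0.43) and Cdc25a (0.01), in DP2, Tfdp1 (-0.02), and between WT stages, E2f6 (0.17). Differences from the stage tables turned for Cdk1 (0.02), Cdkn1b (0.09) and Cdc25a (0.06). Differences relative to the median gene turned for Ccnb1 (-0.20), Ccnb2 (-0.20), Ccnf (-0.05), Cdkn2c (-0.01), Cdkn3 (-0.01), E2f1 (-0.0047), E2f2 (-0.22), Cdc25c (-0.13) and Cks1b (-0.10). The causes were not tested.

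No paired analysis was possible because the deposited columns hold 1 value per group and carry no replicate numbers. For the same reason no library was left out. Depth is not given, and the counting error of low members such as Ccnd2 (0.182 to 2.30 FPKM) is unknown.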
